A study of Mus musculus with 14 samples.

Results

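The subject here is a set of 8 protein-coding genes, Bpifb4, Mlf1, Sp2, Prcd, Srcin1, Cmc2, Cav3 and Upp2, in the ovary of mice given dextran sulfate sodium (DSS). They are 8 of the 56748 genes in the deposited table. They were picked by their values at day 7, for a clean gap between DSS and control libraries outside the immune and steroid programmes, so the day 7 gap itself is described and not tested. All 8 passed the filter on low values, among 18006 genes that did.

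DSS is a sulfated polymer that mice take up in drinking water and that inflames the colon. Ovaries of female C57BL/6J mice labelled as wild type were sequenced in 14 libraries: DSS day 7 (n = 4), control day 7 (n = 3), DSS day 89 (n = 4) and control day 89 (n = 3). The series text places day 7 at the end of the DSS model and day 89 after a long rest; the age of the mice, the DSS dose and what the controls received are not stated in the labels used here. The labels do not say that each library is a separate animal, so the errors and tests below describe variation among libraries, part of which could come from technique.

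The 8 genes belong to unrelated pathways. Bpifb4 belongs to the BPI fold family of lipid-binding proteins. Mlf1 encodes an adaptor that moves between nucleus and cytoplasm, first found in a fusion protein of human myeloid leukaemia. Sp2 is a zinc finger transcription factor of the Sp family, which can sit at CCAAT boxes with NF-Y. Prcd encodes a small protein of photoreceptor discs, and its mutation in dogs causes progressive retinal degeneration. Srcin1 encodes p140Cap, an adaptor that restrains Src kinase through Csk. Cmc2 encodes a small protein of the mitochondrial intermembrane space that takes part in building cytochrome c oxidase, a role known mainly from yeast. Cav3 is the caveolin of muscle cells. Upp2 encodes a uridine phosphorylase, which splits uridine into uracil and a ribose phosphate.

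Positions are from GENCODE M21 on GRCm38, matched by gene ID. Sp2 (ENSMUSG00000018678, 96953341 to 96982959, minus strand), Srcin1 (ENSMUSG00000038453, 97509340 to 97576186, minus strand) and Prcd (ENSMUSG00000075410, 116653534 to 116668389, plus strand) lie on chromosome 11. Upp2 (ENSMUSG00000026839, 58567298 to 58792971, plus strand) and Bpifb4 (ENSMUSG00000074665, 153938212 to 153964101, plus strand) lie on chromosome 2. Mlf1 (ENSMUSG00000048416) lies on chromosome 3 at 67374097 to 67400003 on the plus strand. Cav3 (ENSMUSG00000062694) lies on chromosome 6 at 112459505 to 112472872 on the plus strand, and Cmc2 (ENSMUSG00000014633) on chromosome 8 at 116888685 to 116921455 on the minus strand. In M21, exons of 6 of the 8 genes share no base with an exon of another gene. The deposited gene length differs from M21 for Srcin1 (10980 and 9558 bases) and Bpifb4 (3118 and 3127). Overlaps in the annotation used for counting may therefore differ. Prcd exons share 201 bases (13.1% of their length) with Cygb on the opposite strand, and Sp2 exons share 3.69% of theirs with the noncoding D030028A08Rik on the opposite strand. No source used here says how strand was handled, so reads of these stretches cannot be told apart.

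RefSeq promoters (GRCm38.p6; 250 bases before to 50 after a transcript start) were at hand for 7 of the 8 genes, as 10 promoters; Srcin1 had no entry. Those of Mlf1, Prcd, Cav3 and Upp2 are shown because each holds the half-site AAGGTCA, which orphan nuclear receptors of the ovary such as SF-1 can bind, and 1 of Sp2 because it is dense in CCAAT boxes. The Sp2 and Upp2 starts shown are 1 of 3 and 1 of 2 listed, and both lie within the annotated gene. Capitals mark 6 motifs searched on both strands: CCAAT (the NF-Y box), GGGCGG (the core of the Sp box), TATAAA (the TATA box), the half-site above, CACGTG (the E-box of clock and Myc factors) and TGACGTCA (the cyclic AMP element).
Mlf1 promoter, chr3:67373847-67374146, plus strand: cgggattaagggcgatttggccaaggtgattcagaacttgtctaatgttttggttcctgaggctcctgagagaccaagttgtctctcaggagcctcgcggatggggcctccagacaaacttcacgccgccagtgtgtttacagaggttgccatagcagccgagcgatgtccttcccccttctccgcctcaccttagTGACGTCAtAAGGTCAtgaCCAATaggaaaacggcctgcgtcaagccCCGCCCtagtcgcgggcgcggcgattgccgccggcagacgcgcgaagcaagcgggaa
Sp2 promoter, chr11:96977639-96977938, minus strand: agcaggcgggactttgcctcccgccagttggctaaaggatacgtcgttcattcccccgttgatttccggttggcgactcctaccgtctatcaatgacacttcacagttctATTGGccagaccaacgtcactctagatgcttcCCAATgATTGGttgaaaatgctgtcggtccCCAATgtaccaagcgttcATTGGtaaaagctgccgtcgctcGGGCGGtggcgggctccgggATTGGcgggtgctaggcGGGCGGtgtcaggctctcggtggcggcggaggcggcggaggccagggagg
Prcd promoter, chr11:116656858-116657157, plus strand: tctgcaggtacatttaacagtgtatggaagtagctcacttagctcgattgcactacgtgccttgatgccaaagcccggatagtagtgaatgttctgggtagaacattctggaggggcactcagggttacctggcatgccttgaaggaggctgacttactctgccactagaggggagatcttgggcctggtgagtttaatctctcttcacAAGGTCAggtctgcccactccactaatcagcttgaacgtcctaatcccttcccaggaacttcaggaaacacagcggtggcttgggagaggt
Cav3 promoter, chr6:112459255-112459554, plus strand: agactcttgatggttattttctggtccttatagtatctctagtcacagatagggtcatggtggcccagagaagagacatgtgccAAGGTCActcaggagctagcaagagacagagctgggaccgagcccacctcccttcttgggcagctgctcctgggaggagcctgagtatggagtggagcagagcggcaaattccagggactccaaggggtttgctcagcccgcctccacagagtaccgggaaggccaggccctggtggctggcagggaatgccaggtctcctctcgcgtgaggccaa
Upp2 promoter, chr2:58754934-58755233, plus strand: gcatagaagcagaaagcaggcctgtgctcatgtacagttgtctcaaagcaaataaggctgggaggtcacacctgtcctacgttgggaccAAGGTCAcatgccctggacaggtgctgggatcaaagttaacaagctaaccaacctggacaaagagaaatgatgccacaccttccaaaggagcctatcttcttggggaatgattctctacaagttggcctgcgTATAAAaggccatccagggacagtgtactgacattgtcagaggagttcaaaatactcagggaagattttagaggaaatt

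AAGGTCA was present in 4 of the 10 promoters, in 4 genes, against 4.72% of all 32851 promoters of the same length. It was added to the search after the sequences had been read, so the count is a description of these windows. CCAAT occurred in 4 of the 10 promoters, in 4 genes, against 37.4% of all promoters, and 6 times in the Sp2 promoter shown. GGGCGG occurred in 3 of the 10, in 3 genes, against 35.7% of all. The Mlf1 promoter alone held TGACGTCA (1.79% of all), 1 of Sp2 held CACGTG (7.15%), and the Upp2 promoter shown held TATAAA (13.6%). In the Mlf1 promoter TGACGTCA is followed closely by the half-site and then by the CCAAT box, with no shared letter. None of the 6 motifs was in the Cmc2 window.

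The libraries held 15256018 to 18505144 reads, as recovered from the deposited values. Mitochondrial transcripts took 9.96% to 14.2% of reads in 3 libraries (DSS day 7 replicate 75, and control day 7 replicates 10 and 53) and 0.479% to 4.04% in the other 11. The extract protocol names retinas where the labels name ovary; markers of luteal, granulosa and oocyte cells were abundant (Hsd3b1 up to 3681 FPKM, Inha up to 2329, Zp3 up to 114), and no photoreceptor marker of 9 exceeded 0.733 FPKM. Over all genes, limma called 6 of 18006 between DSS and control at day 7 (0.0333%), with 2889 (16.0%) at an unadjusted p under 0.05. At day 89 it called 1 (0.00555%; 0 to 2 with 1 library left out), with 824 (4.58%) at an unadjusted p under 0.05. The day 7 count was 1221 without DSS replicate 75, 0 without 80 and 1 without 81 or 82. It was 41 without control replicate 10, 2 without 51 and 3 without 53. Between the days, limma called 31.8% of genes in control ovaries and 21.4% in DSS ovaries. Age, and any difference in the handling of the day 7 and day 89 libraries, cannot be told apart in those contrasts.

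**Figure D1:**
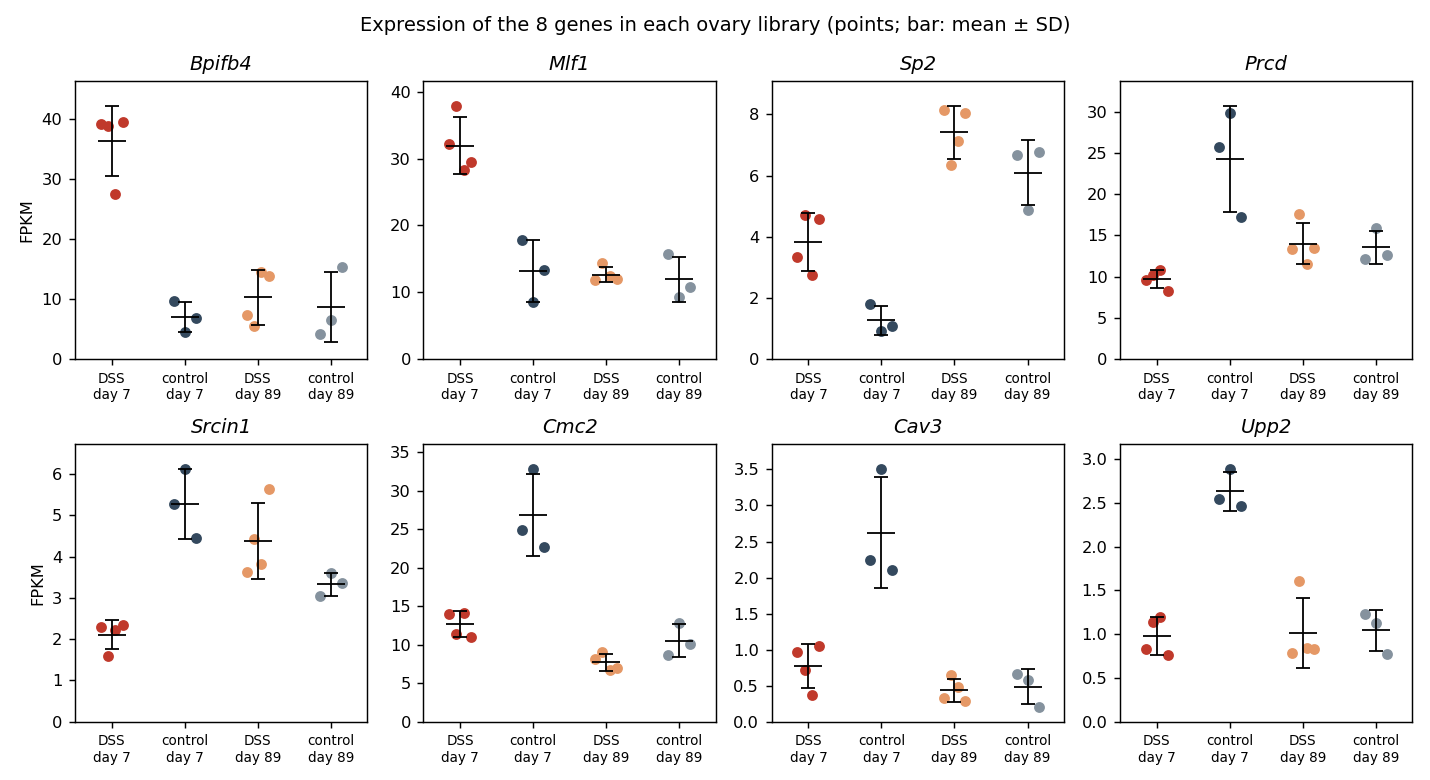
FPKM of each of the 8 genes in every library (points), by group on the x axis, with the group mean and SD as black bars. Bpifb4 and Mlf1 stand high in DSS day 7 alone, Prcd and Srcin1 lowest there, and for Sp2, Cmc2, Cav3 and Upp2 the control day 7 libraries lie apart from the other 3 groups.

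By choice of the genes, DSS and control libraries did not overlap at day 7 in any of the 8. The DSS libraries were above all controls for 3 genes (6.24% of all tested genes) and below all controls for 5 (5.87% of all). The choice did not use the groups at day 89. Which day 7 group lies outside all other libraries still depends on the day 7 values that chose the genes. The counts that follow are therefore a description. For Bpifb4, Mlf1, Prcd and Srcin1 the DSS day 7 libraries lay outside all the other libraries of the study. This held for 4 of the 8 members and for 2.26% of all tested genes, or 18.7% of the 2181 genes with separated groups at day 7. For Sp2, Cmc2, Cav3 and Upp2 it was the control day 7 libraries that lay outside all others. That held for 4 of the 8 members and for 878 of the 18006 tested genes, or 40.3% of the 2181 separated at day 7. In bulk tissue, fewer cells that express a gene and less RNA per cell cannot be told apart for any of these levels.

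Bpifb4 had the widest day 7 gap among the 8 genes. It stood at 39.2, 38.8, 27.5 and 39.4 FPKM in DSS day 7 replicates 75, 80, 81 and 82, against 9.58, 4.56 and 6.79 in control replicates 10, 51 and 53. The means were 36.2 ± 5.84 in DSS and 6.98 ± 2.52 in controls (SD, n = 4 and 3), a ratio of 5.19 and a log2 difference of 2.26 (SE 0.38). The lowest DSS library was 2.87 times the highest control, and each value rested on at least 263 reads. At day 89 Bpifb4 was at 7.36, 5.47, 14.5 and 13.9 FPKM in DSS replicates R29, R38, R78 and R89, against 4.22, 6.51 and 15.3 in control replicates R123, R124 and R126. Those groups overlapped fully, and both contained a lower and a higher set of libraries. The DSS day 7 mean was 3.51 times that of DSS day 89.

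The nearest tested genes on either side of Bpifb4 are of the same family, and 1 of them differed in the opposite direction. Bpifb6, the next tested gene at lower coordinates and 25417 bases away, stood at 0.158 to 0.755 FPKM in DSS day 7 and at 2.11 to 3.65 in control day 7. That is a log2 difference of −1.42 (SE 0.37, limma adjusted p = 0.12), of the opposite sign to Bpifb4 and short of the threshold. Bpifa2, the next tested gene on the other side, averaged 1.82 FPKM in DSS and 0.583 in controls (0.89, SE 0.26, adjusted p = 0.148). Of 16 other genes of the BPI fold and lipid-transfer list, 6 were tested and none was called by limma or voom at day 7. Their median difference was 0.47, against 0.0041 over all tested genes. By limma 3 of the 6 had an unadjusted p under 0.05, as had 16.0% of all tested genes. Beside Bpifb6 and Bpifa2 these were Pltp, the phospholipid transfer protein, at 14.6 ± 5.51 FPKM in DSS and 4.08 ± 2.41 in controls with overlapping libraries (1.63, SE 0.35, limma adjusted p = 0.0817). At day 89 none of the 6 was called or had an unadjusted p under 0.05. Lbp, which binds bacterial lipopolysaccharide, had the smallest p there at 4.07 ± 0.703 FPKM in DSS and 2.96 ± 0.871 in controls (limma adjusted p = 0.924).

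Mlf1 followed the same group pattern at a similar level. It stood at 32.2, 37.8, 28.2 and 29.5 FPKM in DSS day 7 libraries, against 17.8, 8.53 and 13.3 in control day 7, in the replicate order given for Bpifb4. The means were 32 ± 4.26 and 13.2 ± 4.62, a ratio of 2.42 and a log2 difference of 1.26 (SE 0.21). At day 89 it was at 11.8, 14.3, 12.5 and 12 FPKM in DSS and 15.7, 9.35 and 10.7 in controls. The day 89 groups overlapped, and all their values lay within the control day 7 range. Its paralog Mlf2 averaged 48.9 ± 2.55 in DSS and 47.4 ± 8.31 in control day 7, with overlapping groups. All 10 genes listed as the Mlf1 family and its partners were tested, and none was called at either day by limma or voom. By limma 2 had an unadjusted p under 0.05 at day 7 (16.0% of all tested genes) and 0 at day 89 (4.58% of all). Both day 7 genes stood higher in DSS. Cops3, a subunit of the COP9 signalosome, was at 8.84 ± 1.98 against 5.1 ± 0.685 FPKM. Trp53, the tumour suppressor p53, was at 28.7 ± 10.5 against 12.9 ± 5.93, with overlapping groups. The smallest p at day 89 in each direction belonged to Trp53 among the positive differences (0.27) and to the chaperone gene Dnajb6 among the negative ones (−0.19) (limma adjusted p = 0.942 and 0.924).

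Oocyte and red blood cell markers, like Bpifb4 and Mlf1, stood higher in the day 7 DSS libraries. All 10 oocyte markers were above 0 in the DSS difference, and their summed level was 302 to 481 FPKM in DSS and 143 to 271 in control libraries. At day 89 that sum was 60 to 179 in DSS and 34.4 to 141 in controls. All 5 tested red blood cell markers of 7 listed were above 0, with sums of 410 to 726 in DSS and 49.9 to 310 in controls at day 7. At day 89 the red blood cell sum was 44.4 to 656 in DSS and 42.7 to 45.6 in controls, so at least 1 DSS day 89 library reached the range of DSS day 7. Markers of motile ciliated cells, in which Mlf1 is known to be expressed, summed to 9.98 to 19.8 and 9.34 to 17.5 FPKM at day 7, with overlapping groups and 3 of 6 tested markers above 0. The part of these cell types in the levels of Bpifb4 and Mlf1 was not tested.

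Prcd and Srcin1 were lower in the day 7 DSS libraries than anywhere else in the study. Prcd stood at 9.53, 10.2, 10.8 and 8.25 FPKM in DSS day 7, against 25.7, 29.8 and 17.2 in control day 7. The means were 9.69 ± 1.09 and 24.2 ± 6.43, a ratio of 0.4 and a log2 difference of −1.21 (SE 0.19). At day 89 it was at 13.4, 17.6, 11.6 and 13.5 FPKM in DSS and 12.1, 15.9 and 12.6 in controls. Both day 89 groups lay between the day 7 groups in their means, and DSS replicate R38 at 17.6 lay just inside the control day 7 range.

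Other rod genes were at lower levels. Of 17 listed photoreceptor disc and rod genes, 3 reached the filter and none was called at either day by limma or voom, with 0 at an unadjusted p under 0.05. Rom1, a disc rim protein, averaged 4.04 ± 1.41 FPKM in DSS and 5.16 ± 1.81 in control day 7. Abca4, the retinal transporter of discs, had the smallest p for a positive day 89 difference, 0.21 (limma adjusted p = 0.932), and Rom1 that for a negative one, −0.10 (0.974). Gngt1 was listed at 0 in every library. Summed photoreceptor markers stayed between 0.272 and 1.51 FPKM in all 14 libraries. Cygb, a globin of fibroblast-like cells whose exons overlap those of Prcd, averaged 129 ± 36.7 FPKM in DSS and 107 ± 28 in control day 7, a difference of opposite sign to Prcd.

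Srcin1 stood at 2.29, 1.6, 2.21 and 2.34 FPKM in DSS day 7, against 5.27, 6.12 and 4.44 in control day 7. The means were 2.11 ± 0.344 and 5.28 ± 0.839, a ratio of 0.4 and a log2 difference of −1.01 (SE 0.16). At day 89 the order of the groups turned round. Srcin1 was at 3.63, 4.43, 3.81 and 5.64 FPKM in DSS and 3.05, 3.6 and 3.35 in controls, so every DSS library was above every control. The day 89 gap was narrow: the lowest DSS library was 1.01 times the highest control. Srcin1 was the single member with separated groups at day 89, in a direction that 4.04% of all tested genes showed (DSS below controls: 4.25%). Its log2 difference there was 0.30 (SE 0.16, limma adjusted p = 0.924). Gm11611, a gene on the same strand, has a span that overlaps that of Srcin1 without a shared exon base in M21. Gm11611 averaged 0.633 FPKM in DSS and 1.99 in control day 7, and 3.15 and 3.85 at day 89.

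The genes that act with p140Cap on Src were tested one by one, with no test of the list as a whole. All 16 listed Src regulators and p140Cap partners were tested, and none was called at either day by limma or voom. By limma 2 had an unadjusted p under 0.05 at day 7 (16.0% of all tested genes) and 1 at day 89 (4.58% of all). Those at day 7 were Egfr, the receptor of epidermal growth factor (6.75 FPKM in DSS and 4.06 in controls), and the phosphatase gene Ptpn1 (22.5 and 16.7). Src itself averaged 13.9 in DSS and 11.2 in control day 7, and Csk 28.9 and 26.7. The day 89 gene was Ptk2b, a focal adhesion kinase relative, at 8.21 ± 2.53 in DSS and 13.1 ± 0.965 in controls (log2 difference −0.66, SE 0.21, limma adjusted p = 0.924). Ctnnd1, p120 catenin, had the smallest p for a positive day 89 difference (0.37, adjusted p = 0.924). The list's median difference was −0.069 at day 7 and −0.064 at day 89, against 0.0041 and 0.0043 over all tested genes.

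Sp2 had its lowest level in control day 7 ovaries and its highest at day 89. It stood at 3.33, 4.7, 2.74 and 4.57 FPKM in DSS day 7, against 1.81, 0.919 and 1.07 in control day 7. The means were 3.83 ± 0.956 and 1.27 ± 0.478, a ratio of 3.02 and a log2 difference of 1.09 (SE 0.19). That difference was 1.71 by voom on reads and 1.54 with a pseudocount of 0.1, since the control level is low. At day 89 Sp2 was at 8.14, 6.33, 7.12 and 8.05 FPKM in DSS and 6.66, 4.86 and 6.78 in controls. The 3 levels in order were thus control day 7, DSS day 7 and both day 89 groups, and the day 89 groups overlapped each other. The closest pair was DSS day 7 at 4.7 and control day 89 at 4.86. D030028A08Rik, whose exons overlap those of Sp2, averaged 2.08 ± 1.47 FPKM in DSS and 0.846 ± 0.266 in control day 7, and 3.94 ± 2.4 and 7.78 ± 5.01 at day 89.

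Sp1 and Sp3 are the broadly expressed Sp factors. Sp1, the founding member of the family, was at 11.3 ± 1.38 FPKM in DSS and 8.2 ± 0.671 in control day 7, and at 15.4 ± 3.15 and 15.2 ± 3.23 at day 89. Sp3 was at 11.8 ± 3.23 and 9.15 ± 3.98, and at 19 ± 4.36 and 21.3 ± 1.37. Of 12 listed Sp factors and partners 8 were tested and none was called at either day by limma or voom. By limma 1, Sp1, had an unadjusted p under 0.05 at day 7 (16.0% of all tested genes) and 0 at day 89 (4.58% of all). Nfyc and Nfyb, subunits of NF-Y, had the smallest p in each direction at day 89, at 0.44 and −0.19 (limma adjusted p = 0.924 and 0.932).

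Cmc2 ran opposite to Sp2. It stood at 14, 11.4, 14.1 and 11 FPKM in DSS day 7, against 24.9, 32.8 and 22.7 in control day 7. The means were 12.6 ± 1.69 and 26.8 ± 5.3, a ratio of 0.471 and a log2 difference of −1.02 (SE 0.17). At day 89 it was at 8.1, 9.06, 6.65 and 6.95 FPKM in DSS and 8.61, 12.9 and 10.1 in controls. All DSS day 89 libraries were below all DSS day 7 libraries, while control day 89 overlapped DSS day 7. The day 89 log2 difference was −0.40 (SE 0.17, 95% interval −0.76 to −0.037), the only one of the 8 with an unadjusted p under 0.05, as were 4.58% of all tested genes (limma adjusted p = 0.924). DSS replicate R38 lay above the lowest control.

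Assembly factors of cytochrome c oxidase and other twin-cysteine proteins of the intermembrane space made up the list for Cmc2. Of 21 listed 20 were tested and none was called at either day by limma or voom. At an unadjusted p under 0.05 there was 1 at day 7, Chchd2 (128 ± 2.56 FPKM in DSS and 157 ± 12.2 in controls), and 0 at day 89. Over all tested genes those shares were 16.0% and 4.58% by limma. The list's median difference was −0.13 at day 7, with 6 of 20 above 0, and 0.011 at day 89. Cmc1, the closest relative in name and fold, averaged 25.2 ± 2.65 in DSS and 29.1 ± 4.2 in control day 7. Coa4 and Coa5 had the smallest p in each direction at day 89, at 0.52 and −0.18 (limma adjusted p = 0.924 for both).

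Cav3 was near the lower limit of measurement outside the day 7 controls. It stood at 0.962, 0.715, 0.365 and 1.04 FPKM in DSS day 7, against 2.24, 3.51 and 2.11 in control day 7. These values rest on 8 to 23 reads in DSS and 34 to 75 in control libraries. The means were 0.772 ± 0.305 and 2.62 ± 0.771, a ratio of 0.295 and a log2 difference of −1.03 (SE 0.19). On this scale low genes are compressed, and the difference was −1.69 with a pseudocount of 0.1 and −1.73 by voom. At day 89 it was at 0.329, 0.646, 0.476 and 0.293 FPKM in DSS and 0.661, 0.585 and 0.211 in controls, from 4 to 14 reads. The day 89 groups overlapped.

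Cav1 and Cav2 are the other caveolins. Cav2 averaged 6.04 ± 1.7 FPKM in DSS and 4.94 ± 1.14 in control day 7. Cav1 averaged 27 ± 4.22 FPKM in DSS and 33.4 ± 2 in control day 7, and 44.1 ± 5.52 and 40.8 ± 11.6 at day 89. Of 12 listed caveolar coat genes 11 were tested and none was called at either day by limma or voom. At day 7, 3 had an unadjusted p under 0.05, all lower in DSS: the coat gene Cavin1 (111 and 149 FPKM), Pacsin3 (7.55 and 11) and the membrane repair gene Dysf (3.12 and 4.87). By limma 16.0% of all tested genes were under 0.05 at day 7, in either direction. The list's median was −0.23 at day 7 and −0.11 at day 89, with 0 at an unadjusted p under 0.05 at day 89. Cav1 and Cav2 had the smallest p in each direction there, at 0.14 and −0.29 (limma adjusted p = 0.949 and 0.928). Skeletal muscle markers summed to 6.67 to 14.5 FPKM in DSS and 4.36 to 9.86 in control day 7. Those groups overlapped, and 4 of 5 tested markers were above 0. Smooth muscle markers summed to 358 to 419 and 320 to 521, with overlapping groups and 2 of 8 markers above 0. The part of muscle cells in the level of Cav3 was not tested. Oxtr, the oxytocin receptor gene that ends 811 bases from Cav3, averaged 10.3 FPKM in DSS and 21 in control day 7, but 34.5 and 35.2 at day 89 (limma adjusted p = 0.371 and 0.971).

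Upp2 had the smallest spread among the day 7 controls of the 8 genes, with a coefficient of variation of 8.54%. It stood at 0.832, 1.14, 1.19 and 0.765 FPKM in DSS day 7, against 2.55, 2.88 and 2.46 in control day 7. The means were 0.983 ± 0.216 and 2.63 ± 0.225, a ratio of 0.374 and a log2 difference of −0.88 (SE 0.16), or −1.36 by voom and −1.35 with a pseudocount of 0.1. At day 89 it was at 0.784, 1.61, 0.836 and 0.831 FPKM in DSS and 1.23, 1.13 and 0.779 in controls. Both day 89 groups overlapped DSS day 7, and all 11 libraries outside control day 7 lay below its lowest value. Gm13558, a gene on the same strand whose span overlaps that of Upp2 without a shared exon base, averaged 0.333 FPKM in DSS and 1.36 in control day 7, and 0.393 and 0.434 at day 89. The hepatocyte markers, given that Upp2 is abundant in mouse liver, summed to 28.9 to 52.9 FPKM in DSS and 10.5 to 48.4 in control day 7, with overlapping groups; Serpina1c was at 0 in every library. Luteal markers summed to 1983 to 3134 in DSS and 2523 to 3536 in controls, most of it Hsd3b1, at a mean of 1859 and 1841. Of the 9 luteal markers 2 were above 0, and their median log2 difference was −1.16. Star, which brings cholesterol into mitochondria, averaged 39.2 FPKM in DSS and 158 in control day 7, and the luteinizing hormone receptor gene Lhcgr 15.7 and 35.3. At day 89 the luteal sum was higher, at 3507 to 5947 in DSS and 4489 to 5136 in controls, and Lhcgr averaged 90.5 and 74.4. The day 89 means of Prcd, Srcin1, Cmc2, Cav3 and Upp2 were below their control day 7 means, in DSS and in controls. The part of hepatocytes and luteal cells in the levels of Prcd, Srcin1, Cmc2, Cav3 and Upp2 was not tested.

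The other uridine phosphorylase, Upp1, stood at 5.86 ± 1.05 FPKM in DSS and 3.04 ± 1 in control day 7, without overlap. The log2 difference of 0.78 (SE 0.22) had the opposite sign to Upp2 and did not pass (limma adjusted p = 0.142). At day 89 Upp1 averaged 2.26 ± 0.434 and 2.08 ± 0.862. Of 18 listed genes of pyrimidine salvage and breakdown 15 were tested and none was called at either day by limma or voom. At an unadjusted p under 0.05 there were 2 at day 7, Upp1 and Cad, and 1 at day 89, Tk1 (thymidine kinase, 4.65 ± 0.792 in DSS and 3.2 ± 0.96 in controls). Over all tested genes those shares were 16.0% and 4.58% by limma. Uprt had the smallest p for a negative day 89 difference (−0.57, limma adjusted p = 0.924).

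**Figure D2:**
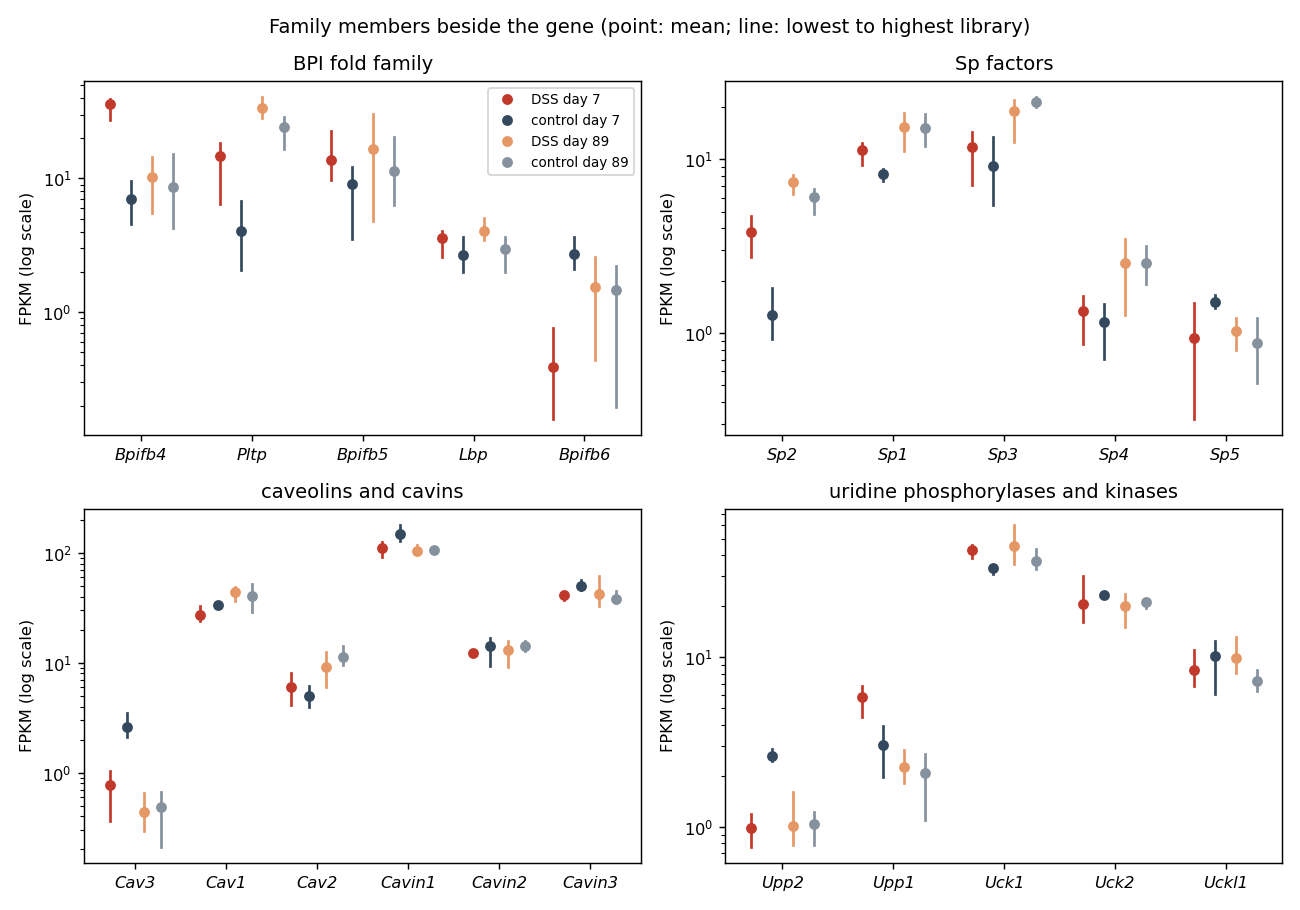
FPKM on a log axis of 4 of the genes beside relatives from their lists, with the group mean (point) and the lowest to highest library (line). Bpifb4 and Bpifb6, and Upp2 and Upp1, differ in opposite directions between DSS and control at day 7, and Cav1 lies above Cav3 in every group.

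Whether the 8 genes still differed after the rest was tested on the day 89 libraries. None of the 8 was called by limma (background 0.00555% of all tested genes) or by voom, which called 0 of all 18006 tested genes. By limma 1 member, Cmc2, had an unadjusted p under 0.05, as had 4.58% of all tested genes. By voom 0 members had, against 752 of the 18006 tested genes. The log2 differences ran from −0.40 for Cmc2 to 0.30 for Srcin1. The 95% intervals were −0.52 to 1.11 for Bpifb4, −0.35 to 0.56 for Mlf1, −0.15 to 0.65 for Sp2 and −0.36 to 0.44 for Prcd. They were −0.037 to 0.64 for Srcin1, −0.45 to 0.36 for Cav3 and −0.38 to 0.31 for Upp2. The spread behind them was estimated from all 14 libraries, those of day 7 included. With the spread from the day 89 libraries alone, none of the 8 was called either. The median size of the day 89 difference, sign aside, was 0.18 over the 8 genes and 0.15 over all tested genes. For a single gene an exact permutation test of 4 against 3 libraries cannot give a two-sided p below 0.0571.

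**Figure D3:**
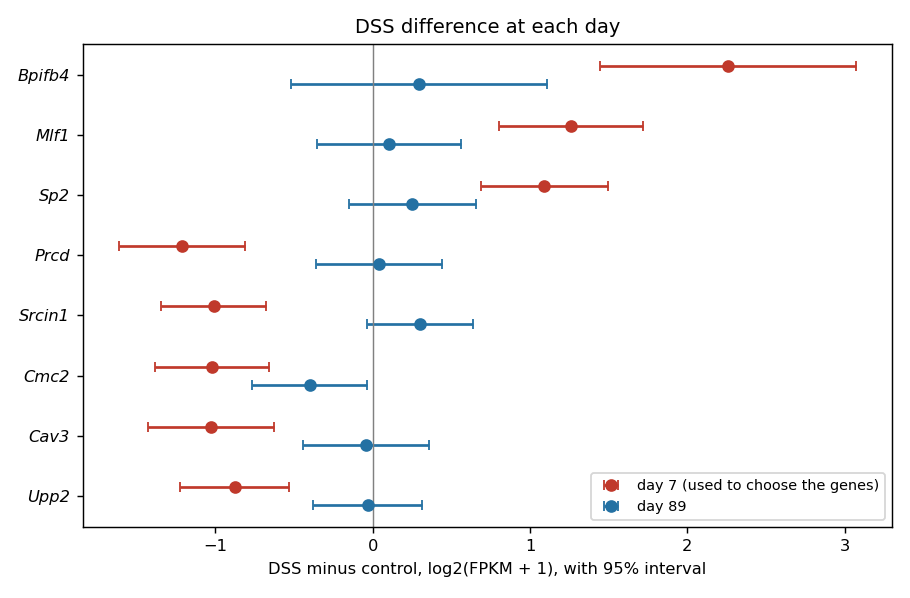
DSS minus control difference in log2(FPKM + 1) of each gene at day 7 and at day 89, with 95% intervals from limma. The day 7 values chose the genes and are shown for size; all day 89 values lie between −0.40 and 0.30.

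Between the days, only values are given, because the day 7 libraries chose the genes. In DSS ovaries, the day 89 minus day 7 difference was −1.80 (SE 0.35) for Bpifb4, −1.27 (0.20) for Mlf1 and −0.65 (0.16) for Cmc2. It was 0.82 (SE 0.17) for Sp2, 0.78 (0.15) for Srcin1 and 0.48 (0.17) for Prcd, and −0.29 (0.17) for Cav3 and 0.010 (0.15) for Upp2. In control ovaries it was 1.65 (SE 0.20) for Sp2, −1.28 (0.20) for Cav3, −1.27 (0.18) for Cmc2 and −0.83 (0.17) for Upp2. It was −0.77 (SE 0.20) for Prcd and −0.53 (0.17) for Srcin1, and 0.16 (0.40) for Bpifb4 and −0.11 (0.23) for Mlf1. The day 89 levels of Mlf1 were thus close to its control day 7 level, and those of Upp2 to its DSS day 7 level. Bpifb4 averaged 10.3 FPKM in DSS and 8.67 in control day 89, against 6.98 in control day 7, with overlapping libraries.

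Libraries of high mitochondrial share fell in both day 7 groups, so the day 7 difference was also taken within them and within the rest. The log2 difference, in that order, was 2.15 and 2.69 for Bpifb4, 1.02 and 1.78 for Mlf1 and 0.84 and 1.36 for Sp2. It was −1.07 and −1.53 for Prcd, −0.83 and −1.23 for Srcin1 and −0.72 and −1.37 for Cmc2. It was −0.69 and −1.42 for Cav3 and −0.94 and −0.94 for Upp2. Within the high share there are 1 DSS and 2 control libraries and within the rest 3 DSS and 1 control, so these are values with no test. The choice of the genes set their sign and bears on their size too, so they are a description only.

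**Figure D4:**
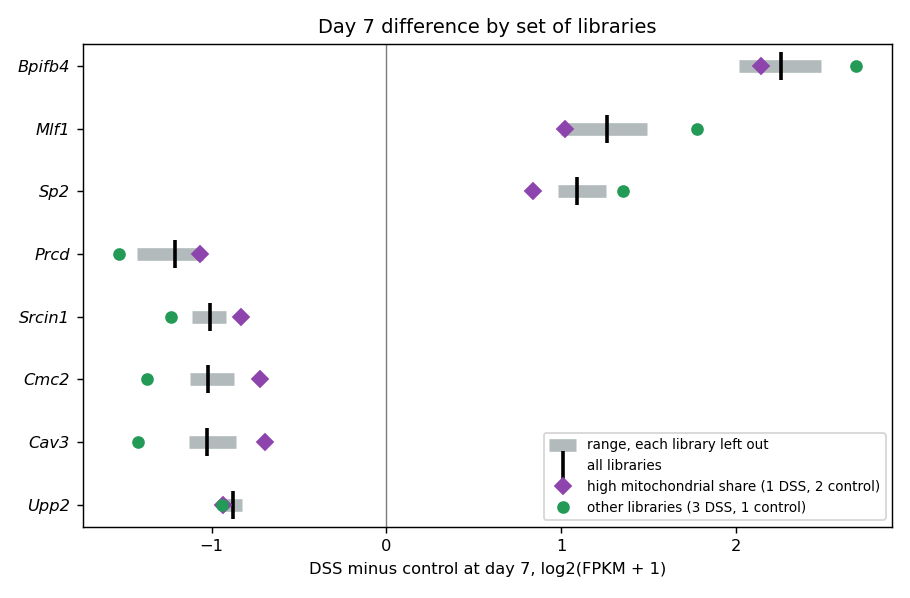
DSS minus control at day 7 in log2(FPKM + 1) for each gene: with all libraries (black tick), over the fits that leave out 1 library (grey range), and within the libraries of high mitochondrial share (diamond) and the rest (circle). The sign is set by the choice of the genes; the 2 sets of libraries differ most for Mlf1, Cmc2 and Cav3.

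The genes most like each member were taken by Pearson correlation of log2(FPKM + 1) over the 14 libraries, among 12103 named genes with a mean FPKM of at least 1. All points share the 4 groups, so the correlations mainly describe group levels and carry no p. Sp2 was most like Eif3c (r = 0.976), a subunit of a translation initiation factor, then Ttc17 (0.974) and Scyl3 (0.973). Cmc2 was most like Cnih1 (0.966), a cargo receptor relative of the secretory path, then Cops9 (0.959) and Tmem101 (0.958). Cav3 was most like Aamdc (0.962), then Rpl13a (0.944) and the cytokine gene Il15 (0.930). Upp2 was most like Mycbp (0.948), then Tmem161a (0.915) and Cdipt (0.904), the enzyme that makes phosphatidylinositol. Mlf1 was most like P4ha3 (0.933), a collagen prolyl hydroxylase subunit, then Nme4 (0.922) and Ppic (0.919). Srcin1 was most like Olfm1 (0.893), then Smarcal1 (0.845) and Irag1 (0.833). Bpifb4 was most like Chn1, the transcription factor gene Mafa and Lipt2 (0.886, 0.882 and 0.882). Prcd was most like Rasl12 (0.885), Fhip2b (0.867) and Esrra (0.843), the oestrogen-related receptor alpha.

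Similar group means follow from the choice by correlation, and the values of P4ha3, Cops9 and Olfm1 are given as examples. P4ha3 averaged 2.23 FPKM in DSS and 0.862 in control day 7, and 0.641 and 0.724 at day 89. Cops9 averaged 45.3 in DSS and 100 in control day 7, and 24.1 and 32.2 at day 89. Olfm1 averaged 7.52 in DSS and 15.5 in control day 7, and 11.6 and 11 at day 89.

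Among the 8 genes, the correlation over the 14 libraries was strongest between Sp2 and Cmc2 (r = −0.965). Cmc2 and Cav3 had an r of 0.888, Cav3 and Upp2 0.863, Bpifb4 and Mlf1 0.813 and Prcd and Srcin1 0.822. Other pairs were as strong, such as Sp2 and Cav3 (−0.880) and Prcd and Upp2 (0.850), the latter of unlike group pattern. After each group's mean was taken off, the values were −0.688 for Sp2 and Cmc2, 0.245 for Cmc2 and Cav3 and 0.292 for Cav3 and Upp2. They were 0.042 for Bpifb4 and Mlf1, 0.412 for Prcd and Srcin1 and 0.811 for Prcd and Cmc2. For Prcd and Upp2 the value was 0.644, and for Bpifb4 and Upp2 −0.726. Within groups, then, the pairs that shared a group pattern did not all vary together from library to library.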

How the data were processed

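Expression was deposited as FPKM, reads scaled to gene length and library size, in 1 column per library beside the gene lengths. HISAT2 2.0.5 and GRCm38 are named per the submitters' processing notes and the sources used here name no counter, annotation release or strand setting. FPKM times length fell on whole multiples of 1 step per library for 100% of values below 300 steps (within 0.01 step), which gave the reads. The deposited positions of all 8 genes differed from GENCODE M21, whose positions are printed.

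Genes with 0.5 FPKM or more in at least 3 libraries were tested. limma 3.58.1 (R 4.3.3, limma-trend) was fitted to log2(FPKM + 1) of all 14 libraries with 1 mean per group, and p-values were adjusted by Benjamini-Hochberg over all 18006 tested genes, with a threshold of 0.05. Fold changes are on this scale, which understates low genes. voom on the recovered reads was the count-based alternative. Between DSS and control it called 0 of the 18006 tested genes at day 7 and 0 at day 89. The lack of a call by voom thus holds for every gene and is not particular to a list. The design allowed a count test if counts were found; as the table holds FPKM, limma was used. The fit was tested on simulated data.

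The members and gene lists were chosen with earlier results of these data known. Besides the members, the text names the 3 genes most correlated with each, list genes of smallest p at day 89, and relatives, neighbours and list genes with a low p at day 7 that were picked after their values were seen. No 2 replicates of a group agreed within sampling noise.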

Additional observations from a re-analysis of the deposited data

Results flagged for a closer look

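For Srcin1, every DSS library was below every control at day 7 (log2 difference −1.01), which chose the gene, and above every control at day 89 (0.30), where the closest libraries differed by a ratio of 1.01. The day 89 difference was not called (95% interval −0.037 to 0.64, limma adjusted p = 0.924), and 4.04% of all tested genes had DSS above all controls there and 4.25% below. The difference between the days was not tested.

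In 2 of 16 sets of 4 DSS libraries, 1 library stood far from the other 3 by Dixon's criterion, which chance meets in about 1 of 20 sets. Bpifb4 in DSS day 7 replicate 81 was at 27.5 FPKM, with the other 3 between 38.8 and 39.4. Upp2 in DSS day 89 replicate R38 was at 1.61 FPKM, with the other 3 between 0.784 and 0.836. R38 also had the highest mitochondrial share at day 89, 3.66% against 2.37% to 2.57% in those other 3. Its gene length trend was −0.023 in log2 per doubling of length, against 0.044 to 0.061 in them. The bearing of either on Upp2 was not tested.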

How the results depend on the processing

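At day 89 the count of members called stayed 0 under all 16 alternatives. Of 128 day 89 values, 13 changed sign. Removing each library's gene length trend gave 0.023 for Upp2 in place of −0.033. With 1 library left out at a time, the difference ran from −0.064 (without control replicate R123) to 0.76 for Bpifb4 in place of 0.30, −0.039 to 0.31 for Mlf1, −0.066 to 0.15 for Prcd, −0.18 to 0.045 for Cav3 and −0.16 to 0.032 for Upp2. The cause was not tested. It stayed above 0 for Sp2 (0.12 to 0.32) and Srcin1 (0.19 to 0.37) and below 0 for Cmc2 (−0.52 to −0.26). At day 7, where the choice of genes fixes the sign, 14 of 128 values moved by more than the residual SD, under voom, a pseudocount of 0.1 or with the 3 mitochondria-rich libraries left out, which leaves 1 control. Over all tested genes, the day 7 count of 6 called was 0 by voom and from day 7 libraries alone, 2 with a pseudocount of 0.1 or own read totals, 20 with a term for the mitochondria-rich libraries and 915 without them. The day 89 count of 1 was 5 with no filter and 0 under voom, a pseudocount of 0.1, the length correction, day 89 libraries alone or without those libraries. Between the days in control ovaries 5732 were called, against 3141 with that term and 3231 without those libraries. The edgeR test that the design allowed for a table of counts was not run, so voom is the only count-based fit. No paired analysis was possible because no replicate number recurs between groups. Depth limits Cav3, which rests on 4 to 23 reads outside control day 7.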
